A study of Mus musculus with 23 samples.

Results

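Forkhead genes encode transcription factors that share the winged-helix DNA-binding domain and are named Fox, with a letter for the subfamily and a number for the member. Genes of the deposited mouse table whose symbol has that form were taken: 43 of the 54347 in the table. Pseudogenes, opposite-strand transcripts and genes not reported here were left out, so the 43 are not the whole family. The 25 with a mean of at least 0.5 CPM over the 4 groups of libraries are described one by one, where CPM, the usual unit of depth-normalised counts, relates a count to its library's scaled total. The lowest of them were Foxl1 (0.78) and Foxr1 (0.713), and the highest of the 18 left out were Foxj1 (0.395) and Foxp3 (0.315).

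As background, members of the forkhead family differ in use. FoxC, FoxD, FoxF and FoxL genes mark mesenchyme and vessels in the developing face and gut, several of them as hedgehog targets, while Foxi3 acts in the epithelium of teeth and hair downstream of ectodysplasin. FoxO factors leave the nucleus when Akt phosphorylates them, FoxP and FoxK factors mostly repress transcription, and Foxm1 drives genes of the G2 and M phases. The mouse incisor grows throughout life from the labial cervical loop, an epithelial fold at its base that is packed in dental mesenchyme.

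RNA-seq libraries came from cells of the labial cervical loop of lower incisors at postnatal day 2, in mice with a Sox2-GFP reporter driven by the endogenous Sox2 promoter. All mice carry the reporter, and cell sorting divided the dissociated tissue into Sox2-positive cells (dental epithelial stem cells by their label) and a Sox2-negative remainder. Batch A holds 6 Sox2-negative and 6 Sox2-positive libraries and batch B 4 Sox2-negative and 7 Sox2-positive libraries, the batches being experiments on separate days with different mice. The labels do not say whether libraries of a batch come from separate mice, so n counts libraries, and p-values measure the spread between libraries, which may be technical. The comparison asks which forkhead genes set Sox2-positive cells apart from the rest of the region.

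Library totals ran from 2305588 to 9541800 estimated counts, so that 3 counts, the limit that a count of 0 allows, corresponded to 0.347 to 1.31 CPM. This limit and the intervals given for sparse genes cover counting error only. Sox2 itself averaged 0.0422 ± 0.103 and 7.35 ± 4.46 CPM (SD) in Sox2-negative and Sox2-positive libraries of batch A and 0.29 ± 0.579 and 16.6 ± 2.9 CPM in batch B, and no population overlapped with the other. All 9 epithelial markers were higher and all 9 mesenchymal, 7 endothelial and 7 leukocyte markers lower in Sox2-positive cells, and Sox2-negative libraries held genes of all these cell types. Of 5 ameloblast markers tested, 4 were lower and 1 higher in Sox2-positive cells. The 7 listed summed to 729 to 912 CPM in Sox2-negative and 296 to 353 CPM in Sox2-positive libraries of batch A. In batch B they summed to 581 to 701 and 9.94 to 17.6 CPM. Sox2-positive libraries also differed between batches: 7 glial and neural crest markers summed to 1012 to 1288 CPM in batch A and 52.6 to 87.2 CPM in batch B, and 6 skeletal muscle markers to 0 to 3.04 and 189.5 to 384 CPM. In Sox2-negative libraries, 6 erythroid markers summed to 954 to 1149.8 CPM in batch A and 52787 to 61087 CPM in batch B.

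Summed over the 43 genes, forkhead transcripts were less abundant in Sox2-positive cells. Their summed level was 826 ± 80.8 CPM in Sox2-negative and 574 ± 58.9 CPM in Sox2-positive libraries of batch A (SD, n = 6 and 6), and 980.4 ± 108 and 697 ± 39.9 CPM in batch B (n = 4 and 7). The ranges of the populations did not overlap within either batch. Foxc1, Foxc2, Foxd1, Foxd2, Foxf1, Foxf2, Foxl1, Foxq1 and Foxs1 are 9 genes at or near 0 in Sox2-positive cells, except Foxd2 in batch A (up to 3.1 CPM). They made up 20.02% to 27.7% of the sum in batch A Sox2-negative libraries and 27.4% to 31.3% in batch B. In Sox2-positive libraries they made up at most 0.496% and 0.179%. These 9 were set together after their values were seen. The other 34 genes summed to 633 ± 72.7 and 572 ± 58.7 CPM in batch A and 695 ± 93.5 and 697 ± 39.7 CPM in batch B, with overlapping ranges in both.

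Over both batches, 23 of the 25 genes passed the filter on low counts (Foxl1 and Foxr1 did not), and 15 of the 23 passed the test (edgeR's quasi-likelihood test, batch as a covariate, Benjamini-Hochberg adjusted p under 0.05), where 57.5% of all 17190 genes tested did. Foxi3 and Foxp1 were higher in Sox2-positive cells, 2 genes beside 24.9% of all genes, and 13 were lower, beside 32.5%: Foxc1, Foxc2, Foxd1, Foxd2, Foxf1, Foxf2, Foxj2, Foxk1, Foxo3, Foxo4, Foxp2, Foxq1 and Foxs1. The median log2 fold change, Sox2-positive over Sox2-negative, was -1.06 over the 23 genes and -0.12 over all genes. A gene near 0 in 1 population can pass the filter only through the other, so these counts describe the genes that passed and not the family. Within batch A, 10 of 20 genes tested were called, all lower (43.4% of all genes were called, 24.2% lower). Within batch B, 13 of 20 were called, 10 lower and 3 higher (54.7% of all genes, 27.6% lower and 27.1% higher).

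**Figure D1:**
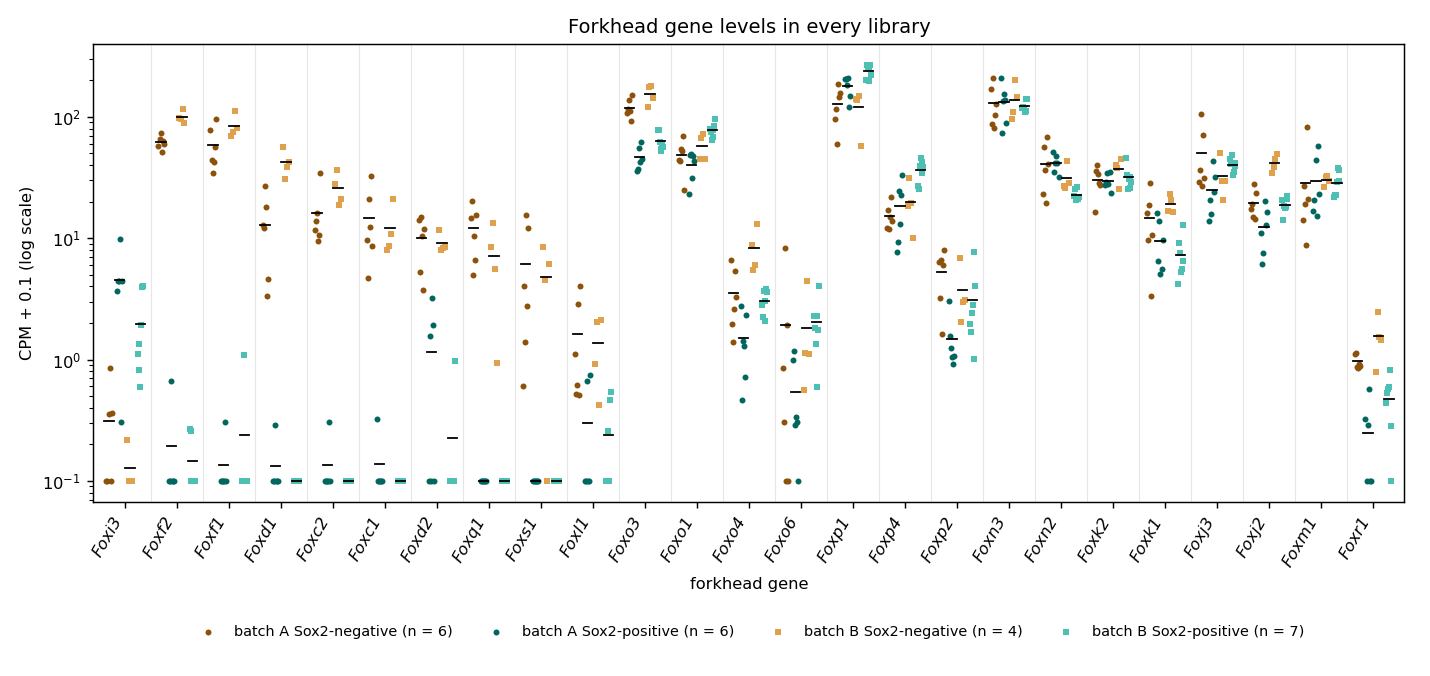
CPM + 0.1 on a log axis of the 25 forkhead genes (horizontal) in each of the 23 libraries; circles are batch A and squares batch B, brown and tan Sox2-negative, dark and light green Sox2-positive, and a black line marks the group mean. Foxi3 sits higher in the green points, and Foxf2 through Foxs1 drop to or near 0 (plotted at 0.1) in them, except Foxd2 in some batch A libraries. From Foxo3 rightward the 4 group means of each gene lie within 10-fold of each other.

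Foxi3, the forkhead gene of dental and hair epithelium whose loss in dogs goes with missing teeth and hair, had the largest log2 fold change toward Sox2-positive cells of the 23 genes tested. It lies at chr6:70956531-70961066 on the plus strand of GRCm38 (mm10), a gene of 2 exons. Batch A Sox2-negative libraries held 0, 0.129 and 0.759 CPM (lowest, median and highest), and Sox2-positive libraries 0.204, 4.33 and 9.78 CPM (lowest, median and highest). Batch B Sox2-negative libraries held 0.116, 0, 0 and 0 CPM, and Sox2-positive libraries 0.492, 1.25 and 3.94 CPM (lowest, median and highest). Every Sox2-positive library had at least 1 count, and in batch B the populations did not overlap. In batch A they overlapped through 1 Sox2-positive library at 0.204 CPM, below the highest Sox2-negative value. By counts, Foxi3 was 21.8 (counting interval 9.13 to 68.4) times as abundant in Sox2-positive cells in batch A and 45.7 (counting interval 7.87 to 1837) times in batch B (exact binomial intervals at 95%). The log2 fold change over both batches was 4.49 (SE 0.76, adjusted p = 1.56e-05). Foxi3 passed the filter in neither batch alone. With no filter it was called in each, with 4.27 (SE 1.22, adjusted p = 0.0100) for batch A and 5.10 (SE 1.36, adjusted p = 0.00151) for batch B, where 22.4% and 32.5% of all genes were called.

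The bases upstream of Foxi3 are shown because it alone of the 25 genes was near absent from Sox2-negative cells while present in Sox2-positive cells. They come from RefSeq (GRCm38.p6), run 5′ to 3′ on the gene's strand and stop at the start of the GENCODE gene; capitals mark GC boxes (GGGCGG or its reverse complement).
Foxi3 (chr6:70956356-70956530, plus strand): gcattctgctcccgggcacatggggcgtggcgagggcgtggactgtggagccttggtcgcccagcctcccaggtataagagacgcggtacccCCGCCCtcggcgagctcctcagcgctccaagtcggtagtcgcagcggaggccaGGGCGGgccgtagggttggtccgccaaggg
The 250-base RefSeq window held 70.4% G or C and 24 CpG, against medians of 52.4% and 6 over 32851 windows of that length, and its GC boxes lay 158 and 105 bases before the RefSeq start. A GC box stood in 32.7% of all windows, the forkhead core GTAAACA in 3.17% and a TATA box (TATAAA) in 12.4%; neither of the last 2 stood in the window of Foxi3. RefSeq windows were at hand for 14 of the 25 genes.

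Ectodysplasin and activin signals act upstream of Foxi3 in skin and tooth epithelium. Of 10 such genes, all tested, 4 were higher and 2 lower in the Sox2-positive population, beside 24.9% and 32.5% of all genes. Their median log2 fold change was 0.85 (all genes -0.12). Fst, an activin antagonist, averaged 7.19 and 45.4 CPM in batch A and 10.1 and 84.8 CPM in batch B in Sox2-negative and Sox2-positive cells (log2 fold change 2.81, adjusted p = 1.32e-06). Edaradd, the adaptor of the ectodysplasin receptor, averaged 12.3 and 108 CPM in batch A and 14.6 and 56.2 CPM in batch B (log2 fold change 2.51, adjusted p = 1.05e-07). Inhba, which encodes the activin A subunit, was lower in Sox2-positive cells at 68.2 and 33.7 CPM in batch A and 113 and 65.5 CPM in batch B (log2 fold change -0.96, adjusted p = 5.30e-05). Nfkbia, an inhibitor of NF-kappaB, was also lower (log2 fold change -0.45, adjusted p = 0.0163), but its difference changed between batches (log2 fold change -0.86 in batch A and 0.13 in batch B, interaction adjusted p = 0.0231).

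Foxq1, known for its role in the hair shaft, had no count in any of the 13 Sox2-positive libraries. Its Sox2-negative levels were 4.9, 12.5 and 20.2 CPM (lowest, median and highest) in batch A and 8.34, 13.3, 5.47 and 0.837 CPM in batch B, so that it was at least 16.8-fold and at least 5.32-fold lower in Sox2-positive cells (against 3 counts in the shallowest Sox2-positive library). Foxq1 is a gene of 1 exon that overlaps A530084C06Rik on the opposite strand. The counting is not stated to use strand, and A530084C06Rik itself had counts in only 1 library. Foxn1, a factor of hair keratinocytes and thymus epithelium, stayed below the mean for detail: its group means were 0.154 and 0.258 CPM in batch A and 0 and 0.791 CPM in batch B. It was named after its values were seen, since the fit with no filter called it in batch B (adjusted p = 0.0103) on 21 counts in all. Foxa1 and Foxe1 had at most 2 counts in any group, and Foxa2 and Foxi1 none.

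Forkhead genes of mesenchyme and vessels were present in Sox2-negative cells and nearly absent from Sox2-positive cells in both batches, except Foxd2 in batch A. Foxf2 and Foxf1, hedgehog-responsive factors of facial and gut mesenchyme, were the most abundant of them. Foxf2 held 51.6, 61.7 and 73.8 CPM (lowest, median and highest) in batch A Sox2-negative libraries and 96.9, 94.99, 115 and 88.5 CPM in those of batch B. Its Sox2-positive libraries held 3 counts in all in batch A, from 1 library, and 2 counts in batch B, so no Sox2-positive library came near the lowest Sox2-negative one. Foxf1 held 34.6, 50.1 and 94.9 CPM (lowest, median and highest) in batch A Sox2-negative libraries and 68.9, 75.5, 112 and 81.0 CPM in batch B, against 1 count in the batch A and 4 counts in the batch B Sox2-positive libraries, all 4 of them in library 4. By counts, Foxf2 was 633 (counting interval 216 to 3071) times as abundant in Sox2-negative cells in batch A and 1669.5 (counting interval 462 to 13793) times in batch B. For Foxf1 the ratios were 1761 (counting interval 316 to 69606) and 701 (counting interval 273 to 2576), with no count left in batch B Sox2-positive cells without library 4. Each was called over both batches and within each (adjusted p over both batches = 1.96e-18 and 4.81e-16).

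Foxc1 and Foxc2, needed for vessels and craniofacial bone, and Foxd1, a factor of stromal and facial mesenchyme, shared this pattern at lower levels. Foxc2 held 9.36, 12.7 and 34.0 CPM (lowest, median and highest) in batch A Sox2-negative libraries and 27.9, 36.2, 18.6 and 20.9 CPM in batch B. Foxc1 held 4.57, 10.9 and 32.2 CPM (lowest, median and highest) in batch A and 7.88, 8.57, 10.8 and 20.8 CPM in batch B. Foxd1 held 3.26, 12.3 and 26.6 CPM (lowest, median and highest) in batch A and 56.6, 30.6, 38.3 and 42.2 CPM in batch B. Each of these 3 genes had 1 count in all in the 6 batch A Sox2-positive libraries and none in the 7 of batch B, and no populations overlapped. In batch B they were at least 19.7-fold, at least 9.13-fold and at least 31.9-fold lower in Sox2-positive cells (Foxc2, Foxc1 and Foxd1), and in batch A the ratios of Sox2-negative to Sox2-positive were 474 (counting interval 84.5 to 18762), 458 (counting interval 81.7 to 18141) and 381 (counting interval 67.8 to 15086). All 3 were called over both batches and within each.

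Foxd2, a close relative of Foxd1, had 8 to 13 counts in each of 3 batch A Sox2-positive libraries. Batch A Sox2-negative libraries held 3.67, 11.1 and 14.7 CPM (lowest, median and highest), and the 6 Sox2-positive libraries 0, 0, 0, 1.45, 1.84 and 3.1 CPM. Batch B Sox2-negative libraries held 11.6, 7.83, 8.2 and 8.37 CPM, and 6 of the 7 Sox2-positive libraries had no count, the other 0.876 CPM from 2 counts. The populations did not overlap in either batch. The log2 fold change was -3.26 (SE 0.97, adjusted p = 0.0123) for batch A. In batch B, Foxd2 was 156 (counting interval 42.6 to 1292) times as abundant in Sox2-negative cells by counts. The difference between the batches did not pass (interaction adjusted p = 0.156), but Foxd2 was the 1 forkhead gene called there when batch B Sox2-positive library 7, which held those 2 counts, was left out. Glial and neural crest markers summed to 1012 to 1288 CPM in the batch A Sox2-positive libraries, and their part in the Foxd2 values was not tested.

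Foxs1, a small intronless gene expressed in pericytes and sensory neural crest, had no count in any Sox2-positive library. It held 0.505, 3.3 and 15.4 CPM (lowest, median and highest) in batch A Sox2-negative libraries and 8.34, 4.43, 0 and 6.02 CPM in batch B, a wide spread in which 1 batch B library had no count, as the Sox2-positive libraries had. In batch A the populations did not overlap. It was at least 8.38-fold and at least 3.58-fold lower in Sox2-positive cells, and was called over both batches (adjusted p = 1.52e-05). Foxl1, a marker of mesenchyme under gut epithelium, was scarce, at 1.51 ± 1.5 and 0.202 ± 0.313 CPM in batch A and 1.27 ± 0.832 and 0.137 ± 0.191 CPM in batch B in Sox2-negative and Sox2-positive libraries. It failed the filter; with no filter it was called over both batches (log2 fold change -2.84, SE 0.87, adjusted p = 0.00783; 35.1% of all genes were called in that fit).

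Mesenchymal and endothelial marker genes moved with these forkhead genes, and pericyte and smooth muscle markers did so in part. The 9 mesenchymal markers, which include Col1a1, Msx1 and Twist1, summed to 12168 to 13668 CPM in batch A Sox2-negative and 1363 to 1939.9 CPM in Sox2-positive libraries, and to 11236 to 14426 and 707 to 827 CPM in batch B. Twist1 had no count in any Sox2-positive library. The 7 endothelial markers summed to 699 to 945 and 19.4 to 33.4 CPM in batch A and to 188 to 267 and 5.6 to 13.5 CPM in batch B, with Cdh5 and Emcn at most 0.105 CPM on average in either Sox2-positive group. The 6 pericyte and smooth muscle markers summed to 657 to 989 and 127 to 188 CPM in batch A and to 554 to 609.6 and 488 to 525.6 CPM in batch B. Of these 6 genes 4 were lower and 1, Tagln, was higher in Sox2-positive cells (log2 fold change 1.19, adjusted p = 3.26e-06). In batch B Cspg4 was higher as well (0.52, adjusted p = 0.00825), and Acta2, the smooth muscle actin gene, was at -0.06 (adjusted p = 0.637). The part of these cell types in the forkhead differences was not tested, and in bulk libraries fewer cells of a type and less RNA per cell cannot be told apart.

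Hedgehog signalling maintains FoxF and FoxD genes in mesenchyme. Of its 8 listed genes, 3 were higher and 4 lower in Sox2-positive cells, beside 24.9% and 32.5% of all genes (median log2 fold change -0.75). The receptor and target gene Ptch1 averaged 580.2 and 136 CPM in batch A and 757 and 179 CPM in batch B (log2 fold change -2.14, adjusted p = 9.13e-16), and Hhip, a hedgehog-binding inhibitor and target, 89.7 and 0.154 CPM in batch A and 118 and 0.834 CPM in batch B (log2 fold change -7.90, adjusted p = 4.17e-15). Shh, the ligand, was higher over both batches (log2 fold change 0.98, adjusted p = 0.0269), but its difference depended on the batch: 2.49 in batch A and -0.46 in batch B (interaction adjusted p = 1.07e-05). Of 9 vessel genes downstream of FoxC and FoxF factors, 1 was higher and 5 were lower, beside the same 24.9% and 32.5% (median -1.34). The VEGF receptors Flt1 and Kdr were lower, with log2 fold changes of -9.08 and -8.49, and the Notch target Hey2 was higher at 3.33 and 23.7 CPM in batch A and 2.45 and 18.9 CPM in batch B (log2 fold change 2.83, adjusted p = 1.43e-05). Kdr is also among the endothelial markers given above, so it is not a separate result here.

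Of these 9 forkhead genes, 6 lie in 2 runs on the chromosomes, each with a FoxF, a FoxC and a further gene. Foxq1 (chr13:31556134-31560976), Foxf2 (chr13:31625816-31631403) and Foxc1 (chr13:31806633-31812476) follow each other on chromosome 13, with gaps of 64.8 and 175.2 kb. Foxf1 (chr8:121084386-121088144), Foxc2 (chr8:121116171-121118895) and Foxl1 (chr8:121127940-121130644) do so on chromosome 8, with gaps of 28 and 9 kb. Foxc1, Foxc2, Foxl1 and Foxq1 have 1 exon each, and Foxf1 and Foxf2 have 2.

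The noncoding genes Fendrr and 1700018A04Rik, next to the FoxF genes, were near absent from Sox2-positive cells as well, while the coding neighbours Mthfsd and Gmds were not. Fendrr, a long noncoding RNA that starts 1275 bases from Foxf1 on the opposite strand, averaged 71.7 ± 20.8 and 0.0634 ± 0.155 CPM in batch A and 106 ± 24.9 and 0.0821 ± 0.217 CPM in batch B in Sox2-negative and Sox2-positive libraries. The lincRNA 1700018A04Rik, which starts 23 bases before the start of Foxf2 and which is transcribed away from it, averaged 12.4 ± 4.6 and 0.0795 ± 0.195 CPM in batch A and 14.9 ± 1.98 and 0.247 ± 0.581 CPM in batch B. Both were called over both batches (adjusted p = 2.36e-17 and 1.16e-08). Mthfsd, a folate enzyme homologue between Foxf1 and Foxc2, was higher in Sox2-positive cells at 30.9 ± 9.03 and 52.3 ± 7.53 CPM in batch A and 21.0 ± 2.9 and 44.8 ± 13.2 CPM in batch B (log2 fold change 0.86, adjusted p = 9.37e-05). Gmds, a GDP-mannose dehydratase gene beyond Foxc1, was lower but kept 17.5 and 10.2 CPM in the Sox2-positive groups (log2 fold change -1.17). The lincRNA Gm26815, beyond Foxl1, was scarce and failed the filter. It averaged 1.58 and 0.501 CPM in batch A and 2.25 and 0.949 CPM in batch B in Sox2-negative and Sox2-positive libraries. These neighbours were named after their values were seen.

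**Figure D2:**
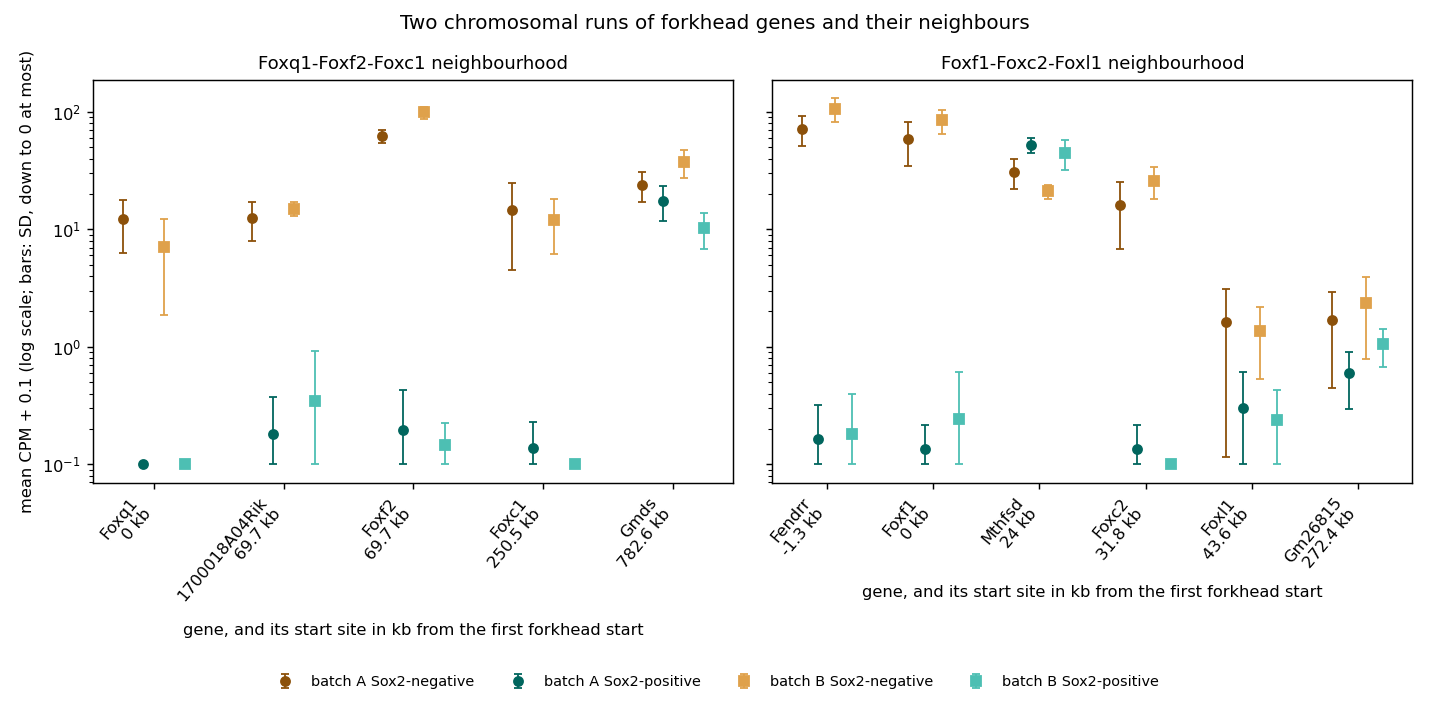
Mean CPM + 0.1 on a log axis (bars, SD, drawn down to 0 at most) of the genes at 1 CPM or more in some group in and around the Foxq1-Foxf2-Foxc1 run (left) and the Foxf1-Foxc2-Foxl1 run (right), ordered by start site, whose distance in kb from Foxq1 or Foxf1 stands under each name. Brown and tan Sox2-negative means stand far above the green Sox2-positive means for the forkhead genes, Fendrr and 1700018A04Rik. Mthfsd and Gmds differ far less between the populations, and their 4 group means are all at 10.2 CPM or more.

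The bases upstream of Foxf2, Foxc1 and Foxd1 are shown as examples, 1 each of FoxF, FoxC and FoxD, of genes present in Sox2-negative and near absent from Sox2-positive cells. They stop at the GENCODE start; capitals mark GC boxes (GGGCGG or its reverse complement) and CCAAT boxes (CCAAT or its reverse complement).
Foxf2 (chr13:31625566-31625815, plus strand): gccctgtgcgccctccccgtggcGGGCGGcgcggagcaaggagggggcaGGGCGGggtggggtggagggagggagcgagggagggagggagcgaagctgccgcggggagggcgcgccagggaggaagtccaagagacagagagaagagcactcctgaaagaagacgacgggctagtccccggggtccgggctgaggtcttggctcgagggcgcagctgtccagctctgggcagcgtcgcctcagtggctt
Foxc1 (chr13:31806396-31806632, plus strand): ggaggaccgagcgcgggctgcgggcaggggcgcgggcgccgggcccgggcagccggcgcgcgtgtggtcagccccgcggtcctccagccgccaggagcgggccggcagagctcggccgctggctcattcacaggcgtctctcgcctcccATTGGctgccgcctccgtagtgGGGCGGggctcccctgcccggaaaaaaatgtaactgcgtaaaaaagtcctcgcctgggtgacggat
Foxd1 (chr13:98353995-98354241, plus strand): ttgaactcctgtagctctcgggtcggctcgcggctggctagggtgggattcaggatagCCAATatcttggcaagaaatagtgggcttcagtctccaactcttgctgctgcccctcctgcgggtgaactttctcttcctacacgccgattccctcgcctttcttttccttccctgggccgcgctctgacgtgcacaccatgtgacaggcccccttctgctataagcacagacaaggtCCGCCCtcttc
All but the last 23 bases of the Foxf2 run lie inside 1700018A04Rik on the other strand. The 250-base windows held 71.6% G or C and 21 CpG for Foxf2, 70.8% G or C and 29 CpG for Foxc1 and 57.2% G or C and 12 CpG for Foxd1. GC boxes lay 227 and 201 bases before the RefSeq start in Foxf2, 79 bases in Foxc1 and 14 bases in Foxd1, and a CCAAT box 101 bases before it in Foxc1 and 192 in Foxd1 (33.9% of all windows hold one). A GLI core (GACCACCC), in 0.703% of all windows, stood in none of the 3, nor did GTAAACA or TATAAA; Foxi3, which went the other way, had GC boxes too.

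FoxO factors, effectors of insulin and growth factor signalling in quiescence and stress resistance, split by member: over both batches Foxo3 and Foxo4 were lower in Sox2-positive cells, and Foxo1 was not called. Foxo3 held 91.6, 113 and 149.8 CPM (lowest, median and highest) in batch A Sox2-negative libraries and 35.8, 43.4 and 62.1 CPM (lowest, median and highest) in Sox2-positive libraries. In batch B it held 119.6, 174, 178 and 142 CPM in Sox2-negative libraries and 51.9, 59.6 and 77.7 CPM (lowest, median and highest) in Sox2-positive libraries. Every Sox2-positive library lay below every Sox2-negative one in its batch. The log2 fold change was -1.41 (SE 0.19, adjusted p = 1.65e-05) in batch A, -1.26 (SE 0.15, adjusted p = 4.33e-06) in batch B and -1.38 (SE 0.12, adjusted p = 2.51e-10) over both.

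Foxo1, which shares many known targets with Foxo3, held 25.1, 47.8 and 69.8 CPM (lowest, median and highest) in batch A Sox2-negative and 23.1, 45.2 and 48.9 CPM (lowest, median and highest) in Sox2-positive libraries. In batch B it held 44.7, 67.1, 72.0 and 44.7 CPM in Sox2-negative libraries and 64.6, 78.2 and 95.9 CPM (lowest, median and highest) in Sox2-positive libraries. The populations overlapped in both batches. Its log2 fold change was -0.29 (SE 0.27, adjusted p = 0.403) for batch A and 0.47 (SE 0.17, adjusted p = 0.0309) for batch B, which was called, and 0.02 (SE 0.18, adjusted p = 0.939) over both. The difference between batches was 0.70 (SE 0.32, adjusted p = 0.217). The batch B call was lost without Sox2-negative library 1 or 4 or Sox2-positive library 6 or 7 (12 to 14 forkhead genes were then called), under RLE size factors (12 called), in a group means model over all libraries (14 called) and with the replicate block (10 called). Over both batches the sign turned without Sox2-negative library 1 or 4 of batch B (log2 fold change -0.0007 and -0.0009). Foxo1 overlaps the antisense gene Gm20402, whose reads could not be told apart without strand. The ratio of Foxo3 to Foxo1 CPM ran from 1.31 to 5.98 in batch A Sox2-negative and from 0.767 to 1.55 in Sox2-positive libraries. In batch B it ran from 2.48 to 3.18 and from 0.585 to 1.03, with no overlap there and a narrow one in batch A.

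Foxo4, on the X chromosome (chrX:101254528-101260873), averaged 3.45 ± 2.06 and 1.4 ± 0.906 CPM in batch A and 8.25 ± 3.52 and 2.93 ± 0.694 CPM in batch B in Sox2-negative and Sox2-positive libraries. It was lower in Sox2-positive cells over both batches (log2 fold change -1.43, SE 0.38, adjusted p = 0.0025) and in batch B alone (log2 fold change -1.46, SE 0.41, adjusted p = 0.00705), and missed the threshold in batch A (log2 fold change -1.33, SE 0.63, adjusted p = 0.102). Foxo6, better known from brain, was scarce at 1.84 ± 3.22 and 0.436 ± 0.442 CPM in batch A and 1.71 ± 1.77 and 1.92 ± 1.07 CPM in batch B. In each Sox2-negative group 1 library stood above the others, and Foxo6 was not called (log2 fold change -1.06, SE 0.81, adjusted p = 0.265).

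Among 16 FoxO target genes, 3 were higher and 7 lower in Sox2-positive cells, beside 24.9% and 32.5% of all genes (median log2 fold change -0.31). The lowest were Klf2, a factor of endothelium and lymphocytes, at 51.9 and 3.43 CPM in batch A and 30.6 and 0 CPM in batch B (log2 fold change in batch A -3.96, adjusted p = 5.50e-07), and Pdk4, a kinase that restrains pyruvate oxidation (log2 fold change -1.58, adjusted p = 0.0184). The highest were Pik3ip1, an inhibitor of PI3 kinase (log2 fold change 0.69, adjusted p = 0.0325), and Ccng2, an atypical cyclin (log2 fold change 0.54, adjusted p = 0.00892). Within a batch each was called in batch B alone, and the differences between batches did not pass (interaction adjusted p = 0.316 and 0.376). Of 10 genes that regulate FoxO factors, 2 were higher and 6 lower, beside the same 24.9% and 32.5% (median -0.65). Sgk1, a kinase that phosphorylates Foxo3, averaged 81.6 and 5.74 CPM in batch A and 46.2 and 11.9 CPM in batch B (log2 fold change -3.02, adjusted p = 1.54e-07), and Pik3r1, the regulatory subunit of PI3 kinase, 170.3 and 55.5 CPM in batch A and 147 and 54.8 CPM in batch B (log2 fold change -1.58, adjusted p = 1.97e-09). Ywhaz, a 14-3-3 protein that binds phosphorylated FoxO factors, was higher at 566 and 922 CPM in batch A and 577 and 979.7 CPM in batch B (log2 fold change 0.68, adjusted p = 3.55e-10), as was Akt2 (log2 fold change 0.43, adjusted p = 0.0251), at 0.85 in batch A and 0.05 in batch B (adjusted p = 0.00275 and 0.843; interaction adjusted p = 0.0616). Markers of endothelium, where Klf2 is abundant, differed between the populations as given above, and their part in these values was not tested.

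Of the FoxP repressors, Foxp1 was higher in Sox2-positive cells. Foxp1 restrains the activation of hair follicle stem cells and is widely expressed in epithelia. It held 59.1, 131 and 186 CPM (lowest, median and highest) in batch A Sox2-negative and 119.5, 193 and 209.7 CPM (lowest, median and highest) in Sox2-positive libraries. In batch B it held 141, 136, 147 and 57.4 CPM in Sox2-negative libraries and 199, 255 and 268 CPM (lowest, median and highest) in Sox2-positive libraries. The populations overlapped in batch A and did not in batch B, where Sox2-negative library 4 stood below the other 3. The log2 fold change over both batches was 0.67 (SE 0.17, adjusted p = 0.00193). It was 1.01 (SE 0.21, adjusted p = 6.09e-04) in batch B and 0.45 (SE 0.23, adjusted p = 0.129) in batch A, where it was called only without Sox2-negative library 4, and the difference between batches did not pass (adjusted p = 0.45). Foxp1 overlaps the coding gene model Gm20696 on its own strand, so its reads may be shared. Skeletal muscle markers reached 189.5 to 384 CPM in the batch B Sox2-positive libraries, and their part in the FoxP values was not tested.

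Foxp4 held 11.9, 14.3 and 21.8 CPM (lowest, median and highest) in batch A Sox2-negative and 7.61, 17.7 and 32.97 CPM (lowest, median and highest) in Sox2-positive libraries. Batch B libraries held 18.2, 31.02, 19.5 and 9.87 CPM in the Sox2-negative and 25.4, 38.5 and 45.8 CPM (lowest, median and highest) in Sox2-positive libraries, with overlap in both batches. It was called in batch B (log2 fold change 0.90, SE 0.28, adjusted p = 0.0119) and not in batch A (log2 fold change 0.22, SE 0.41, adjusted p = 0.693) or over both (log2 fold change 0.50, SE 0.25, adjusted p = 0.0955). It was called over both batches without batch A Sox2-positive library 1 or 2 or batch B Sox2-negative library 2 (log2 fold changes 0.65, 0.63 and 0.64). Its batch B call was lost with the replicate block (10 forkhead genes called) and in a group means model over all libraries (14 called). Foxp2, known for its part in speech circuits and lung epithelium, was less abundant, at 5.2 ± 2.39 and 1.37 ± 0.785 CPM in batch A and 3.64 ± 2.11 and 3.00 ± 2.26 CPM in batch B. It was lower in Sox2-positive cells in batch A (log2 fold change -1.95, SE 0.58, adjusted p = 0.013) and over both batches (log2 fold change -1.24, SE 0.47, adjusted p = 0.0269), with -0.30 in batch B. Its call over both batches was lost without batch A Sox2-negative library 6, Sox2-positive library 2, 3, 5 or 6, or batch B Sox2-negative library 1 (edgeR adjusted p between 0.0517 and 0.0757), and under limma-voom (adjusted p = 0.0669). Foxp3, the factor of regulatory T cells, had at most 3.13 CPM in any library.

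FoxP and FoxK factors recruit corepressors, and of 12 such partners 7 were higher and 3 lower in Sox2-positive cells, beside 24.9% and 32.5% of all genes (median log2 fold change 0.49). The corepressor Ctbp1 averaged 137 and 499 CPM in batch A and 161 and 357 CPM in batch B (log2 fold change 1.48, adjusted p = 2.79e-09), and Mta2, a subunit of the NuRD complex, 96.2 and 198 CPM in batch A and 74.4 and 170.3 CPM in batch B (log2 fold change 1.06, adjusted p = 1.85e-07). Gatad2b and Mta1, subunits of the same complex, were lower (log2 fold change -0.93, adjusted p = 1.81e-05 and log2 fold change -0.43, adjusted p = 0.0348).

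Foxm1, the factor of G2 and M phase genes, averaged 28.6 ± 26.8 and 29.5 ± 17.1 CPM in batch A and 29.9 ± 2.6 and 28.5 ± 6.5 CPM in batch B in Sox2-negative and Sox2-positive libraries. Its log2 fold change was -0.06 (SE 0.29, adjusted p = 0.867) over both batches. In batch A 1 Sox2-negative library held 81.8 CPM against a median of 19.96. Without that library, number 5, the log2 fold change was 0.27 (edgeR adjusted p = 0.353), and its sign turned without any 1 of 9 other libraries as well (Sox2-positive 1, 2, 4 and 6 of batch A, Sox2-negative 2 and 3 and Sox2-positive 1, 2 and 3 of batch B), at 0.0035 to 0.05. Of 16 genes that Foxm1 is known to activate, 12 were higher and 2 lower in the Sox2-positive population, beside 24.9% and 32.5% of all genes. Their median log2 fold change was 0.73. Their summed level was 1001 to 1167 CPM in Sox2-negative and 1451 to 1652 CPM in Sox2-positive libraries of batch A, and 842 to 1007 and 1264 to 1458 CPM in batch B, with no overlap in either. Kif20a, a kinesin of cytokinesis, averaged 21.0 and 80.6 CPM in batch A and 12.4 and 76.9 CPM in batch B (log2 fold change 2.21, adjusted p = 8.37e-06), and Cdc20, an activator of the anaphase-promoting complex, 61.4 and 203 CPM in batch A and 61.0 and 154 CPM in batch B (log2 fold change 1.49, adjusted p = 1.23e-08). Top2a, a topoisomerase of S and G2 phase, and Cdc25b, a phosphatase that activates Cdk1, were lower (log2 fold change -0.63, adjusted p = 4.48e-04; log2 fold change -0.57, adjusted p = 0.0461).

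Foxm1 works with Mybl2 and the MuvB complex. Of its 6 listed partners, 2 were higher in Sox2-positive cells and none lower, beside 24.9% and 32.5% of all genes: the MuvB subunits Lin52 (log2 fold change 1.43, adjusted p = 4.98e-04) and Rbbp4 (log2 fold change 0.54, adjusted p = 0.0148). The Rbbp4 difference was 1.09 in batch A and 0.01 in batch B (interaction adjusted p = 0.0136). Foxm1 overlaps the coding gene models Gm44596 and Tex52 on its own strand, which makes its level uncertain.

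Foxk1, first described in muscle progenitors, averaged 14.4 ± 8.71 and 9.34 ± 4.57 CPM in batch A and 19.1 ± 3.26 and 7.19 ± 2.93 CPM in batch B in Sox2-negative and Sox2-positive libraries and was lower in Sox2-positive cells over both batches (log2 fold change -1.04, SE 0.31, adjusted p = 0.0057) and in batch B (log2 fold change -1.39, SE 0.33, adjusted p = 0.00188), though not in batch A (log2 fold change -0.67, SE 0.51, adjusted p = 0.312). Its paralog Foxk2 averaged 30.2 ± 8.12 and 29.3 ± 4.34 CPM in batch A and 36.9 ± 8.4 and 31.6 ± 6.89 CPM in batch B and was not called (log2 fold change -0.17, SE 0.16, adjusted p = 0.368).

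Foxj2 held 14.3, 18.0 and 27.8 CPM (lowest, median and highest) in batch A Sox2-negative and 5.98, 11.8 and 20.04 CPM (lowest, median and highest) in Sox2-positive libraries. In batch B it held 34.2, 38.1, 45.2 and 49.2 CPM in Sox2-negative and 14.1, 18.4 and 22.3 CPM (lowest, median and highest) in Sox2-positive libraries, which did not overlap. It was lower over both batches (log2 fold change -0.94, SE 0.20, adjusted p = 3.18e-04) and in batch B (log2 fold change -1.12, SE 0.20, adjusted p = 1.73e-04), but not in batch A alone (log2 fold change -0.71, SE 0.38, adjusted p = 0.146). The antisense gene Gm26826 overlaps it. Foxj3, an activator of Mef2c in muscle, held 26.8, 33.7 and 104 CPM (lowest, median and highest) in batch A Sox2-negative and 13.7, 22.3 and 43.2 CPM (lowest, median and highest) in Sox2-positive libraries. Batch B libraries held 50.5, 29.5, 20.4 and 29.3 CPM in the Sox2-negative and 32.7, 41.0 and 48.0 CPM (lowest, median and highest) in the Sox2-positive. Populations overlapped in both batches, and the differences had opposite signs: -1.04 (SE 0.39, adjusted p = 0.0408) for batch A and 0.34 (SE 0.22, adjusted p = 0.204) for batch B. The test of that contrast did not pass (interaction 1.32, SE 0.48, adjusted p = 0.107), and the batch A call was lost without Sox2-negative library 3 or 5 or Sox2-positive library 1, 2, 3 or 5 (9 or 10 forkhead genes were then called), under limma-voom and under total-count scaling (9 called in each).

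Foxj1, the factor of motile cilia, was below the mean for detail, with group means of 0.0841, 0.839, 0.595 and 0.0626 CPM (batch A Sox2-negative and Sox2-positive, then batch B). Of 12 motile cilia genes only 6 passed the filter, of which 3 were higher in Sox2-positive cells, beside 24.9% of all genes. Tekt1 and Dnah9, a tektin and a dynein arm subunit of cilia, averaged at most 3.13 and 1.94 CPM in any group (adjusted p = 2.28e-05 and 0.00629).

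Foxn3, a checkpoint suppressor and one of the most abundant members, averaged 129 ± 50.2 and 133 ± 48.0 CPM in batch A and 137 ± 47.0 and 122 ± 12.8 CPM in batch B in Sox2-negative and Sox2-positive libraries, with a log2 fold change of -0.10 (SE 0.17, adjusted p = 0.625). Its sign turned without batch A Sox2-positive library 2 (0.0057) or batch B Sox2-negative library 3 (0.06). Foxn2 averaged 40.6 ± 18.9 and 41.2 ± 7.22 CPM in batch A and 30.99 ± 8.04 and 22.7 ± 2.27 CPM in batch B and was not called between populations either (log2 fold change -0.25, SE 0.19, adjusted p = 0.266). Foxr1 averaged 0.865 ± 0.1253 and 0.149 ± 0.191 CPM in batch A and 1.46 ± 0.687 and 0.377 ± 0.234 CPM in batch B. It failed the filter, and with no filter it was lower in Sox2-positive cells (log2 fold change -2.11, SE 0.80, adjusted p = 0.0343).

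**Figure D3:**
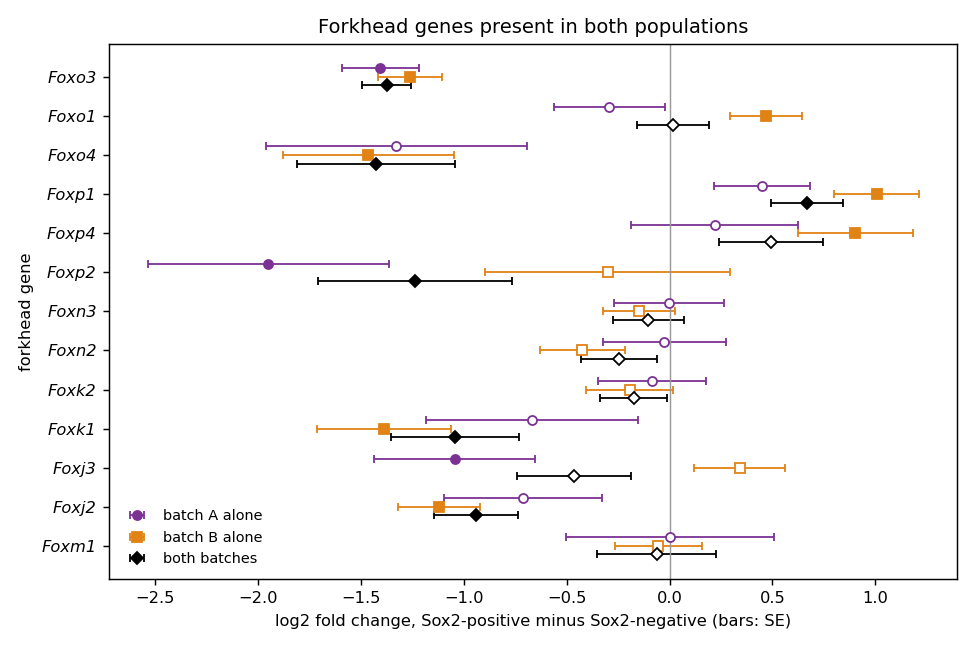
Log2 fold change, Sox2-positive over Sox2-negative, with SE bars, of 13 forkhead genes present in both populations. Fits are from batch A alone (purple circles), batch B alone (orange squares) and both batches (black diamonds). Filled symbols passed an adjusted p of 0.05. Foxo3 lies left of 0 in all 3 fits, Foxp1 right of 0, and Foxn3, Foxk2 and Foxm1 lie near 0 with open symbols.

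No gene of the 23 passed the interaction of population and batch by edgeR's quasi-likelihood test, where 7.04% of all genes did. For Foxq1 and Foxs1, at 0 in every Sox2-positive library, it could not be estimated (SE 1599.6 and 716), so neither could pass. Nor could these genes be called between batches in Sox2-positive cells. Foxc1, Foxc2 and Foxd1 rested on 1 Sox2-positive count each. Of the 23, 3 had an unadjusted p under 0.05, and DESeq2 and limma-voom called 0. In Sox2-positive cells, 3 of the 23 differed between batches (10.4% of all genes): Foxo1 was higher in batch B (log2 fold change 0.94, SE 0.21, adjusted p = 0.00345), and Foxn2 (log2 fold change -0.86, SE 0.24, adjusted p = 0.0203) and Foxd2 (log2 fold change -3.51, SE 1.10, adjusted p = 0.0376) were lower. In Sox2-negative cells, Foxd1 (log2 fold change 1.70, SE 0.53, adjusted p = 0.0416) and Foxj2 (log2 fold change 1.09, SE 0.31, adjusted p = 0.0197) were higher in batch B, 2 of 23 genes beside 11.2% of all genes. Both shares are near those of all genes. The Foxd2 call was lost without any 1 of 9 Sox2-positive libraries (2, 4 and 5 of batch A, 1 to 6 of batch B) and the Foxn2 call without batch A library 1, which left 2 or 3 genes called. The Foxd1 call was lost without any 1 of 8 Sox2-negative libraries (1, 2, 5 and 6 of batch A, all 4 of batch B) and the Foxj2 call without batch B library 4, which left 1 or 0 genes called. Batch, mice and the glial, muscle and erythroid markers given above changed together and cannot be told apart.

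Set per kilobase of transcript, the order of members differed between the populations. In batch A Sox2-negative libraries the highest were Foxf2 (26.2 ± 3.22), Foxf1 (24.1 ± 9.74), Foxp1 (17.6 ± 6.37), Foxo3 (17.4 ± 3.11) and Foxn3 (16.7 ± 6.51) CPM per kb, and in batch B Foxf2 (41.9 ± 4.82), Foxf1 (35.0 ± 7.98), Foxo3 (22.4 ± 4.06), Foxn3 (17.8 ± 6.1) and Foxp1 (16.8 ± 5.89). In Sox2-positive libraries the order began with Foxp1 (24.8 ± 5.1), Foxn3 (17.2 ± 6.22), Foxn2 (8.1 ± 1.42) and Foxo3 (6.75 ± 1.54) in batch A and Foxp1 (33.1 ± 4.23), Foxn3 (15.8 ± 1.66), Foxo3 (9.16 ± 1.56) and Foxp4 (9.02 ± 1.9) in batch B. Among the first 6 places the ranges over libraries of neighbours in this order overlapped, except between Foxf1 and Foxo3 in batch B Sox2-negative libraries and, in batch B Sox2-positive libraries, between Foxp1 and Foxn3 and between Foxn3 and Foxo3.

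**Figure D4:**
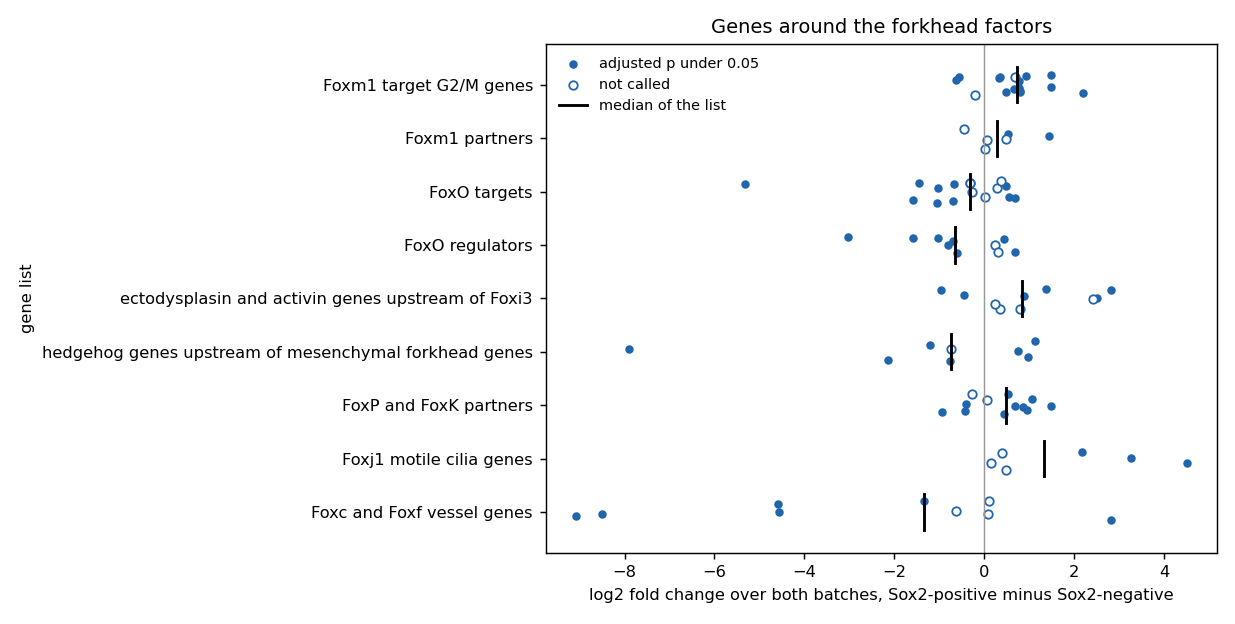
Log2 fold change over both batches, Sox2-positive over Sox2-negative, of the genes listed around forkhead factors (rows), filled where adjusted p was under 0.05, with the median of each list as a black bar. Foxm1 targets lie mostly right of 0, while hedgehog and vessel genes spread from strong losses to moderate gains.

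Of the 18 genes below the mean for detail, 6 had no count in any library (Foxa2, Foxb2, Foxe3, Foxh1, Foxi1 and Foxl2), which allows at most 1.31 CPM in the shallowest library and 0.347 in the deepest. The other 12 included Foxa1, Foxa3, Foxb1, Foxd4, Foxe1, Foxi2, Foxj1, Foxn1, Foxn4, Foxp3 and Foxr2, and of the 12 only Foxa3, Foxj1, Foxn1 and Foxp3 had more than 6 counts in any group. They had group means of at most 0.839 CPM, and the highest value in a single library was 3.13 CPM, of Foxp3, which shares 16.2% of its 31-base words with other genes. Among the 25 detailed genes the shared part was at most 3.45% of such words.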

How the data were processed

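Each library is Smart-seq2 RNA of sorted cells from the labial cervical loop. The values are estimated counts per gene as deposited by the authors; FastQC, Trimmomatic, Salmon and mm10 are named in the submitters' processing notes, without versions or roles, and a strand setting is not given in the sources used here. Estimated counts were rounded, and symbols came from GENCODE M21 for 54094 of 54347 identifiers (99.5%). Populations were compared with edgeR 4.0.16 (R 4.3.3) by the quasi-likelihood test, with TMM scaling, filterByExpr at a minimum count of 10, batch as a covariate over both batches, and Benjamini-Hochberg adjustment over all genes tested. CPM relates a count to the TMM-scaled total. The bounds use 3 counts per library and the exact binomial intervals are at 95%. Every library was checked against the others of its group, and none differed by less than sampling noise. DESeq2 1.42.0, limma-voom (limma 3.58.1), other scalings and filters, the replicate number as a block and leaving out each library were the alternatives. Tests were tried on simulated data. Forkhead genes at a mean of 0.5 CPM or more are named, and of each list the 2 highest and 2 lowest called genes at 1 CPM or more. The forkhead genes and all lists were chosen with earlier results of these data known, so they give no independent support. Values of some single genes are not reported here.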

Additional observations from a re-analysis of the deposited data

Results flagged for a closer look

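Of 77 groups of 4 to 7 libraries examined, 9 held 1 library far from the others. Its gap to the nearest passed Dixon's 95% critical value, which chance passes in about 1 in 20 groups. In batch A Sox2-negative cells these were library 5 for Foxm1 (81.8 CPM, the nearest other at 27.0), library 6 for Foxc2 (34.0, against 15.99) and library 3 for Foxo6 (8.26, against 1.84). In batch A Sox2-positive cells, library 1 held 2.91 CPM of Foxp2, against 1.45. In batch B Sox2-negative cells, library 3 stood above the rest for Foxn2 (42.9, against 28.4) and Foxo6 (4.34, against 1.03), library 1 for Foxd2 (11.6, against 8.37), and library 4 fell below the rest for Foxp1 (57.4, against 136). In batch B Sox2-positive cells, library 1 held 45.7 CPM of Foxk2, against 33.1.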

How the results depend on the processing

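Of 23 genes tested over both batches, 16 kept their direction and their side of the threshold in every alternative that tested them. The count of forkhead genes called was 15 for both batches together (range 14 to 16), 10 for batch A (8 to 14) and 13 for batch B (10 to 18). No forkhead gene passed the interaction, and 0 to 1 did on leaving out 1 library. In Sox2-positive cells the count differing between batches (3) was 6 under limma-voom and 1 without batch B libraries numbered 1 and 2, an alternative chosen after seeing the data. In Sox2-negative cells (2) it was 1 under total-count scaling, 0 with no filter, 0 without those libraries and 0 to 2 on leaving out 1 library. Signs turned for genes that were not called. Foxn3 was at 0.0126 under total-count scaling and -0.16 to 0.0635 on leaving out 1 library. Foxo1 was at -0.0431 with the replicate block, -0.0408 without those libraries and -0.000903 to 0.15 on leaving out 1. Foxm1 was at 0.0634 under total-count scaling, 0.0099 with no filter, 0.0285 without those libraries and -0.17 to 0.27 on leaving out 1, and Foxo6 at 0.0302 under limma-voom. Foxp4 passed under limma-voom (0.68) and total-count scaling (0.62). Foxi3 was not tested at a filter of a mean of 10 counts. Foxk1 did not pass without those libraries (-0.85, adjusted p = 0.0555), nor did Foxp2 (-1.31, 0.0613), which failed with no filter as well (-1.17, 0.118). The causes were not tested. The labels do not say whether library numbers pair the samples. After group means were taken off, same-numbered libraries correlated at -0.0212 to 0.0123 in batch A (1 of 6 best with its own number). In batch B they correlated at 0.0031 to 0.0443 (0 of 4). Libraries of other numbers correlated as weakly, so the check can neither show nor exclude a pairing. With the replicate block 15 genes were called over both batches, 8 in batch A (without Foxj3 and Foxp2), 10 in batch B (without Foxo1, Foxo4 and Foxp4) and 0 for the interaction. Total-count scaling moved the median of all genes by 0.12 (log2) and their calls from 4288 higher and 5591 lower to 4966 and 5051. Depth limits the scarce genes most, where 3 counts are up to 1.31 CPM.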
